A study of Mus musculus with 8 samples.

Results

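The 9 mitophagy and autophagy genes described here were Pink1, Bnip3, Bnip3l, Fundc1, Sqstm1, Optn, Becn1, Map1lc3a and Map1lc3b. They were chosen by name, and each matched 1 row of the 54532 genes in the deposited table. RNA of spermatocytes of C57BL/6J mice was sequenced in 8 libraries, 1 for each combination of stage (P, pachytene, or L/Z, leptotene and zygotene), genotype and age (postnatal day, PD, 24 or 52). Per the labels, both genotypes carried Mfn2 loxp/loxp, in which an exon of Mfn2 is flanked by loxP sites. The MFN2 cKO mice also carried Stra8-Cre, a recombinase driven by a promoter that is active in differentiating male germ cells, so that other cells of the testis keep the intact gene. The MFN2 WT mice are labelled with the floxed alleles and no Cre, although the study's methods also allow controls with a single floxed allele. The cells had been separated by sedimentation through a BSA gradient, which enriches for cell size rather than for a marker. The labels do not give the number of mice behind a library, and because no group had a second library, every test below treats the 4 matched pairs of libraries as its replicates.

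Autophagy encloses part of the cytoplasm in a double membrane and delivers it to the lysosome, and mitophagy is the form in which the cargo is a mitochondrion. A kinase complex starts the process, a lipid kinase complex that contains Beclin 1 marks the forming membrane, and LC3 proteins are coupled to that membrane, where they hold cargo adaptors and receptors. Damaged mitochondria are marked with ubiquitin through the kinase PINK1, or carry receptors in their outer membrane that bind LC3 directly. MFN2 sits in the same outer membrane and is a known substrate of PINK1. In the male germ line, mitochondria are remodelled through meiosis, and cytoplasm is shed late in spermatid development.

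Per the coordinates in the deposited table, which are those of GRCm38, the genes were spread over 7 chromosomes. Pink1 was at chr4:138313409-138326307 on the minus strand, Bnip3 at chr7:138890836-138909519 (minus), Bnip3l at chr14:66985239-67008877 (minus) and Fundc1 at chrX:17556564-17572325 (minus). Sqstm1 was at chr11:50199366-50210827 (minus), Optn at chr2:5020642-5064051 (minus) and Becn1 at chr11:101285952-101302286 (minus). Map1lc3a was at chr2:155276297-155278073 and Map1lc3b at chr8:121590361-121598760, both on the plus strand. The values were measured over all exons of each gene. Part of the exon sequence of 7 of the genes was also found in other genes, on either strand. Of the 50-base windows of the exons, 47.2% in Bnip3 and 20.8% in Bnip3l were also found in other genes, among them the pseudogene Bnip3l-ps. In Becn1, 36.8% of the windows were shared with Cntd1 and in Sqstm1 15.5% with Mrnip, each of which overlaps its partner on the opposite strand, and the library kit named in the labels does not mark strand. In Map1lc3b 6.01% of the windows were shared, among others with Gm6055 and Gm12727, in Pink1 3.03% and in Optn 0.658%. A share of windows is not a share of reads, since the study sequenced read pairs longer than a window. How far the values of these 7 genes are affected was not measured. Fundc1 and Map1lc3a shared no window.

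Promoter sequence was found for 6 of the 9 genes in RefSeq's annotation of GRCm38.p6, and 3 are shown: those of Pink1 and Map1lc3b, which belong to the results on stage and age, and that of Bnip3, the only one of the 6 with a match to the motifs searched. Each runs 5′ to 3′ on the strand of its gene and stops at the start of the gene's span in GENCODE M21. Capitals mark an E-box, CACGTG, and a CCAAT box, searched on both strands.
Pink1, chr4:138326308-138326546, minus strand: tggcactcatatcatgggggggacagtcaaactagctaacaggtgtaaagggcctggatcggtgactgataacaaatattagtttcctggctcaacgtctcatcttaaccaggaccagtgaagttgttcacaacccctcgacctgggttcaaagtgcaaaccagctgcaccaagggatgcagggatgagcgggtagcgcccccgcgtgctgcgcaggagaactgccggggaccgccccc
Bnip3, chr7:138909520-138909756, minus strand: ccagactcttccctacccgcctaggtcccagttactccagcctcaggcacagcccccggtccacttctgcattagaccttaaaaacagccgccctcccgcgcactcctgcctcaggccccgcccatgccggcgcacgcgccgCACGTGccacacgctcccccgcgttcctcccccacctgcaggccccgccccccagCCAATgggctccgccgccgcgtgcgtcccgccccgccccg
Map1lc3b, chr8:121590188-121590360, plus strand: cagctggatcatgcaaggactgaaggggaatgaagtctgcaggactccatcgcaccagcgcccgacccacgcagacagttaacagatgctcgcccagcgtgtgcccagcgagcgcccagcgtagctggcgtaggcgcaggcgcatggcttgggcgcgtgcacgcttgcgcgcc
Among 32851 promoters of the same annotation, 6.02% held CACGTG and 33.8% held CCAAT in the 250 bases before the start. The shorter core ACGTG, which lies within that E-box, was in 16.6%. A match describes the letters in the window and no more.

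The libraries held between 14340665 and 20379950 reads on genes. Mfn2, the targeted gene, was at 77.1 FPKM (fragments per kilobase of exon, scaled to library size) in P WT, 39.6 in P cKO, 82.2 in L/Z WT and 34.3 in L/Z cKO at PD 24. At PD 52 it was at 62.2, 50.1, 97.5 and 47.9 FPKM in the same order, so that every cKO library lay below every WT library although the difference over the 4 pairs did not pass the test (-0.87 on the log2(FPKM + 1) scale, SE 0.193, limma adjusted p = 0.283). These values count all exons and so do not isolate the floxed one. The stage labels were checked against marker genes. Markers of pachytene spermatocytes summed to between 2345 and 4146 FPKM in all 8 libraries. The 5 markers of leptotene and zygotene spermatocytes divided. Prdm9, Dmc1 and Mei1 were lower in P than in L/Z in all 4 pairs, with differences of -0.55, -0.74 and -0.45 that did not pass the test (limma adjusted p of 0.0617, 0.0541 and 0.0915). Meioc and Meiob were called higher in P, by 0.70 and 0.56. These markers, and those of pachytene spermatocytes called by stage, were named after their values were seen. Meioc led the sum of the 5, which was 34.7 to 70.0 FPKM in L/Z and 59.6 to 85.9 FPKM in P. The 8 markers of elongating spermatids, led by Tnp2, summed to between 428 and 20787 FPKM in the L/Z libraries and to between 120 and 5042 FPKM in the P libraries. They were higher in L/Z than in P in all 4 pairs and higher at PD 52 than at PD 24 in all 4. Both L/Z libraries of PD 52, at 11584 and 20787 FPKM, stood furthest from the rest. Markers of Leydig cells, Sertoli cells, macrophages and peritubular cells also differed among the libraries. No marker was at 0 in any library. RNA of a cell suspension does not separate fewer cells of a type from less RNA per cell.

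**Figure D1:**
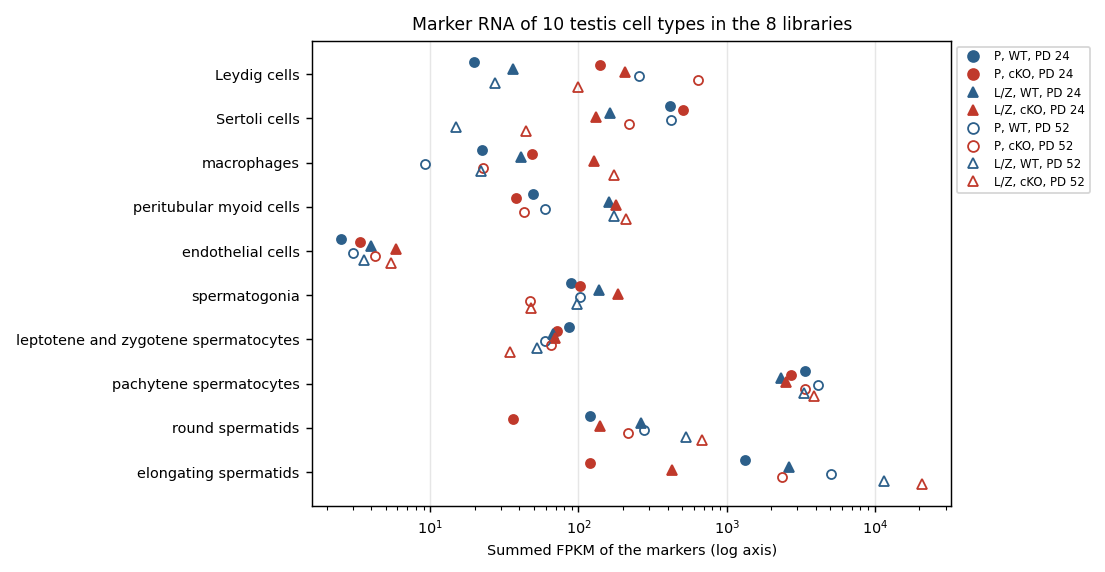
Summed FPKM (log axis) of the marker genes of 10 testis cell types, with 1 point per library, circles for P and triangles for L/Z, blue for WT and red for cKO, filled for PD 24 and open for PD 52. Elongating spermatid markers spanned 120 to 20787 FPKM, while pachytene markers stayed between 2345 and 4146 FPKM.

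All 9 genes were detected in every library, over a wide range of levels per length. By median FPKM over the 8 libraries the order was Map1lc3a (143), Pink1 (82.9), Optn (40.6), Sqstm1 (36.7), Bnip3l (14.4), Becn1 (13.7), Map1lc3b (10.8), Bnip3 (3.93) and Fundc1 (1.27). Not every step in that order was clear of the spread. Map1lc3a exceeded Pink1 in 7 of the 8 libraries, Optn exceeded Sqstm1 in 6, and Bnip3l exceeded Becn1 in only 3. All other neighbours kept their order in each of the 8 libraries. The order also rests on the gene lengths behind FPKM, which count all exons. These were 7517 bases for Map1lc3b and 7065 for Becn1, whose longest transcripts hold 4138 and 4365 bases. An order by transcript length was not computed. Among the 21175 genes above 1 FPKM in at least 1 library, the median of Map1lc3a was at or above that of 98.7% and the median of Fundc1 at or above that of 30.4%. The genes also differed in how far they varied. From the lowest to the highest library, Becn1 spanned 1.505-fold, Optn 1.57-fold, Pink1 1.80-fold and Bnip3l 1.87-fold. Map1lc3b spanned 2.37-fold, Map1lc3a 2.68-fold, Bnip3 2.80-fold and Sqstm1 3.45-fold. Fundc1 spanned 10.2-fold, but from 10 to 121 reads, so that its values carry far more counting error than those of Pink1 with 2989 to 6135 reads.

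**Figure D2:**
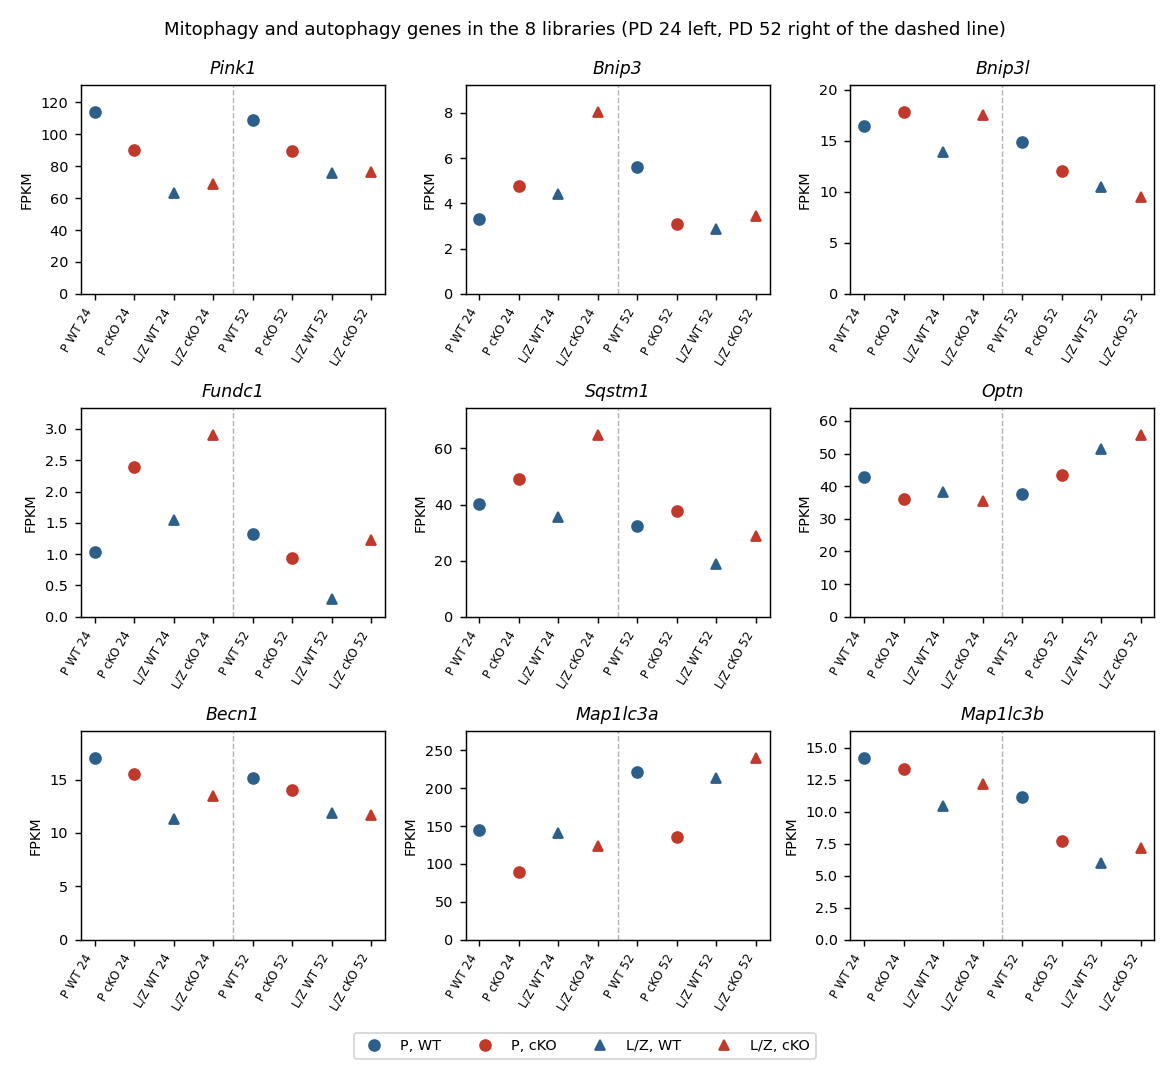
FPKM of each of the 9 genes (linear axis from 0, its own scale in each panel) in the 8 libraries, with 1 point per library, circles for P and triangles for L/Z, blue for WT and red for cKO, and PD 24 to the left of the dashed line. Map1lc3a rises and Map1lc3b falls across the dashed line, and Sqstm1 is higher in each cKO point than in its WT neighbour.

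Age was the only factor for which any of the 9 genes passed the test, and the pair of LC3 genes went in opposite directions. The ranges of the ages overlapped in all 9 genes. Map1lc3a, which encodes LC3A, stood at 144.8 FPKM in P WT, 89.6 in P cKO, 140.8 in L/Z WT and 124.3 in L/Z cKO at PD 24. At PD 52 it stood at 221.4, 136.2, 213.9 and 239.9 FPKM in the same order. It was higher at PD 52 in all 4 pairs, by 1.52-fold to 1.93-fold, although the P cKO library of PD 52 lay within the range of the PD 24 libraries. Map1lc3b, which encodes LC3B, the form most used to follow autophagosomes, stood at 14.2, 13.3, 10.5 and 12.1 FPKM at PD 24. At PD 52 it stood at 11.2, 7.74, 5.97 and 7.20 FPKM. It was lower at PD 52 in all 4 pairs, at 0.571 to 0.786 of the PD 24 level, and only the P WT library of PD 52 reached the PD 24 range.

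Both LC3 genes passed the test for age. Map1lc3a rose by 0.69 on the log2(FPKM + 1) scale (SE 0.145, limma adjusted p = 0.0315) and Map1lc3b fell by 0.61 (SE 0.148, limma adjusted p = 0.0429). That is 1 of the 9 genes called higher and 1 called lower, where 11.2% of all 21175 genes tested were called higher and 4.91% lower, so that a count of 1 in each direction is close to what the background gives. Both calls kept their direction under every alternative. Both lost the threshold with 0.1 instead of 1 added to FPKM (limma adjusted p of 0.0642 and 0.0725), and Map1lc3b with scaling on coding genes (limma adjusted p = 0.0526). Both also lost it when the pair of L/Z cKO, of L/Z WT or of P cKO libraries was left out. The same held in the P libraries alone, where Map1lc3a was 1.53-fold higher in WT and 1.52-fold higher in cKO. There the fitted difference was 0.60 for Map1lc3a (adjusted p = 0.353) and -0.52 for Map1lc3b (adjusted p = 0.430), with ranges over all alternatives of 0.0176 to 0.353 and 0.0233 to 0.430.

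The ratio of the LC3 genes within a library does not depend on how libraries are scaled. Its size does depend on the gene lengths used, which are the same in every library. Map1lc3a FPKM divided by Map1lc3b FPKM was 10.2 in P WT, 6.72 in P cKO, 13.5 in L/Z WT and 10.2 in L/Z cKO at PD 24. At PD 52 it was 19.8, 17.6, 35.8 and 33.3. The ages did not overlap in this ratio, which was chosen after the values of both genes were seen. Spermatid RNA moved with it. The 8 elongating spermatid markers summed to 1320 FPKM in P WT, 120 in P cKO, 2634 in L/Z WT and 428 in L/Z cKO at PD 24, and to 5042, 2370, 11584 and 20787 FPKM at PD 52. Of these markers, 7 of 8 were called higher with age, as were 5 of the 5 round spermatid markers, which summed to between 36.3 and 264 FPKM at PD 24 and to between 217 and 681 FPKM at PD 52. The library with the least elongating spermatid RNA, P cKO at PD 24, had the lowest ratio, and both L/Z libraries of PD 52, with the most, had the highest. Sertoli cell markers went the other way, with 4 of 6 called lower with age and sums of 131 to 507 FPKM at PD 24 and 14.9 to 424 FPKM at PD 52. Of the 5 tested peritubular markers, 1 was called higher and 2 lower. The part of these cells in the age differences of the LC3 genes was not tested, nor was it for the other genes described below.

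**Figure D3:**
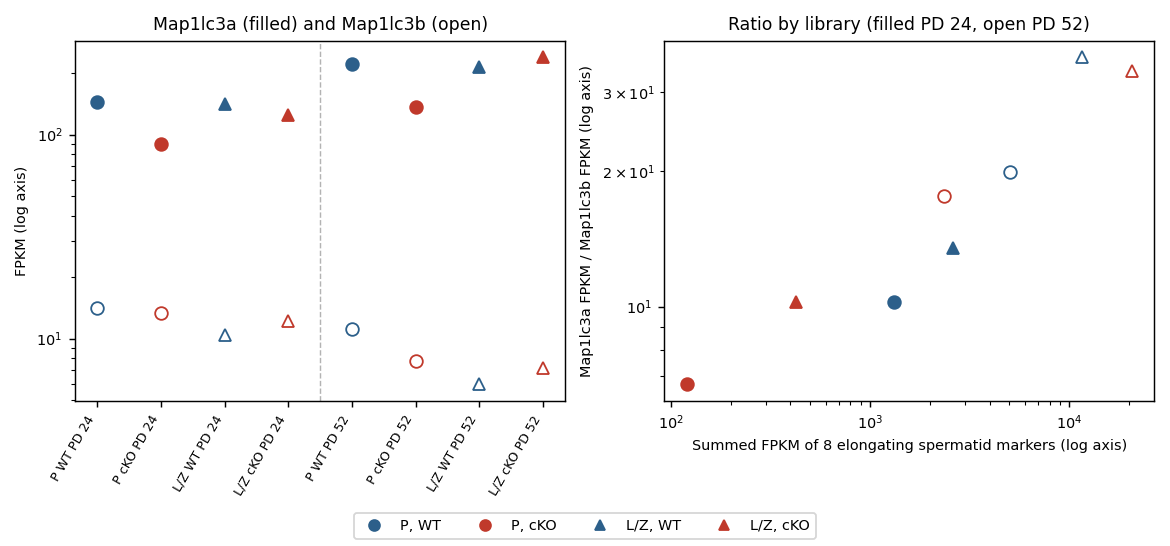
Left, FPKM (log axis) of Map1lc3a (filled) and Map1lc3b (open) in each library. Right, the ratio of their FPKM (log axis) against the summed FPKM of 8 elongating spermatid markers (log axis), filled for PD 24 and open for PD 52. In both panels circles are P, triangles L/Z, blue WT and red cKO, and the ratio runs from 6.72 in P cKO at PD 24 to 35.8 in L/Z WT at PD 52.

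Of the cargo adaptors, which link ubiquitin on cargo to LC3, Sqstm1 and Optn took different courses with age. Sqstm1, which encodes p62 and is itself degraded by autophagy as a protein, stood at 40.2 FPKM in P WT, 49.2 in P cKO, 35.6 in L/Z WT and 64.7 in L/Z cKO at PD 24, and at 32.5, 37.8, 18.7 and 28.9 FPKM at PD 52. It was lower at PD 52 in all 4 pairs, with the larger differences in L/Z, but did not pass the test (-0.67, SE 0.193, limma adjusted p = 0.0633). Optn, which encodes the adaptor optineurin, stood at 42.9, 36.1, 38.2 and 35.4 FPKM at PD 24 and at 37.6, 43.4, 51.5 and 55.6 FPKM at PD 52. Its 2 highest values were both L/Z libraries of PD 52, and the difference of 0.28 (SE 0.179) had an adjusted p of 0.285 in the same limma fit. Sqstm1 was called under 2 alternatives, limma-voom on the recovered reads (adjusted p = 0.0362) and a test of protein-coding genes only (adjusted p = 0.0439), with a range of 0.0362 to 0.590 over all of them.

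The mitochondrial receptors gave lower values at PD 52 in most pairs, and none passed the test. Bnip3l, which encodes the receptor NIX, stood at 16.5 FPKM in P WT, 17.8 in P cKO, 13.9 in L/Z WT and 17.5 in L/Z cKO at PD 24, and at 14.9, 12.1, 10.5 and 9.50 FPKM at PD 52. It was lower in all 4 pairs (-0.47, SE 0.165, limma adjusted p = 0.0999). Its relative Bnip3, known as a target of the hypoxia response, stood at 3.33, 4.75, 4.42 and 8.01 FPKM at PD 24 and at 5.59, 3.07, 2.86 and 3.44 FPKM at PD 52. The highest Bnip3 value was L/Z cKO at PD 24, and the pairs went both ways, with P WT higher at PD 52 and the other 3 lower. Fundc1, a receptor in the same membrane, stood at 1.03, 2.40, 1.55 and 2.90 FPKM at PD 24 and at 1.32, 0.937, 0.284 and 1.22 FPKM at PD 52, again lower in 3 of 4 pairs (-0.61, SE 0.230, limma adjusted p = 0.115). Its difference was -1.06 with 0.1 instead of 1 added to FPKM and -1.07 by limma-voom, and neither was called. It was called without the P WT pair (-0.87, limma adjusted p = 0.0373). Bnip3l exceeded Bnip3 in every library, by 2.19-fold to 4.95-fold. In the L/Z cKO pair, Bnip3 stood at PD 52 at 0.430 of its PD 24 level and Sqstm1 at 0.447, the lowest of the 4 pairs in both genes. Fundc1 stood there at 0.421. In that pair 2 of the 9 genes were at least 2-fold lower on the log2(FPKM + 1) scale, and so were 2336 of all 18480 genes.

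Pink1 and Becn1 changed little with age. Pink1 stood at 113.8 FPKM in P WT, 90.2 in P cKO, 63.1 in L/Z WT and 68.6 in L/Z cKO at PD 24, and at 108.8, 89.3, 75.9 and 76.5 FPKM at PD 52, a difference of 0.09 (SE 0.142). Becn1, which encodes Beclin 1, stood at 17.0, 15.6, 11.3 and 13.5 FPKM at PD 24 and at 15.2, 14.0, 11.8 and 11.7 FPKM at PD 52, a difference of -0.11 (SE 0.138). Neither passed the test, with limma adjusted p of 0.674 and 0.585.

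It was stage that separated the libraries in these 2 genes. Every P library, at 89.3 to 113.8 FPKM, lay above every L/Z library, at 63.1 to 76.5 FPKM, in Pink1. Becn1 likewise lay at 14.0 to 17.0 FPKM in P and at 11.3 to 13.5 FPKM in L/Z. Across all genes, 12% were called higher in P and 15.9% lower, and of the 9 genes 0 were called in either direction. At an unadjusted p under 0.05 were 1 of the 9 genes and 8940 of all 21175, a larger share. Pink1 came closest, with 0.49 (SE 0.163, limma adjusted p = 0.0619), and was called with protein-coding genes only (adjusted p = 0.0375) and by limma-voom (adjusted p = 0.0380), the range over all alternatives being 0.0375 to 0.245. Becn1 differed by 0.33 (SE 0.148, limma adjusted p = 0.136). Map1lc3b and Bnip3l were also higher in P in all 4 pairs, by 0.36 (SE 0.176) and 0.26 (SE 0.152), and neither passed the test. In Map1lc3a the P and L/Z levels lay within 0.05 of each other on the log2(FPKM + 1) scale in WT at both ages, and P was lower by 0.47 and 0.81 in the cKO pairs, and whether the stage difference depends on genotype was not tested. Optn, Sqstm1, Bnip3 and Fundc1 went both ways over the pairs.

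Several marker lists moved with stage. Of the elongating spermatid markers, 7 of 8 were called lower in P, and of the macrophage markers 7 of 8. So were all 5 round spermatid markers and 2 of 8 spermatogonia markers. Of the 8 pachytene markers, 2 were called higher in P and 1 lower. All 5 tested peritubular markers were called lower in P, and all 6 Sertoli cell markers were called higher in P, where their sum was 221 to 507 FPKM against 14.9 to 163 FPKM in L/Z. The part of these cells in the stage differences of Pink1 and Becn1 was not tested. Fundc1 lies on the X chromosome, which is largely silenced in pachytene spermatocytes. Its levels were 0.937 to 2.40 FPKM in P and 0.284 to 2.90 FPKM in L/Z, a difference of 0.03 (SE 0.228). Of the 6 X-linked genes of the autophagy list, Tfe3 alone was called, and it was higher in P. Atg4a (-0.48, limma adjusted p = 0.0967), Lamp2 (-0.44, limma adjusted p = 0.0996), Wdr45 (-0.26) and Fundc2 (-0.12) lay lower in P without passing the test.

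The comparison of MFN2 cKO with MFN2 WT asks whether loss of the fusion protein goes with a change in mitophagy transcripts. None of the 9 genes passed the test over the 4 pairs, with 1 of 9 at an unadjusted p under 0.05, and 0 by limma-voom as well. Across all genes 0.0803% were called higher and 0.00472% lower, so that few genes of any kind passed in the fit of log2(FPKM + 1). At an unadjusted p under 0.05 were 1480 of these 21175 genes. Limma-voom called 132 genes higher and 3 lower, and the test of protein-coding genes only 69 and 1, with 0 of the 9 genes in either. The PD 24 libraries alone gave more, 258 of 18997 genes called higher and 925 lower, again with 0 of the 9. Sqstm1 was the gene at the unadjusted threshold. Its values, given above, were higher in cKO than in WT in all 4 pairs, by 1.22-fold in P and 1.82-fold in L/Z at PD 24, and by 1.16-fold in P and 1.54-fold in L/Z at PD 52. The difference was 0.49 (SE 0.170, limma adjusted p = 0.618). Markers of macrophages moved with it. They summed to 22.4 FPKM in P WT and 48.8 in P cKO at PD 24, to 40.9 in L/Z WT and 128 in L/Z cKO at PD 24, to 9.24 in P WT and 22.8 in P cKO at PD 52, and to 21.9 in L/Z WT and 174 in L/Z cKO at PD 52. Their median difference was 1.38, with 0 of 8 called. Leydig cell markers were likewise higher in cKO in all 4 pairs, with 3 of 7 called and sums from 19.7 to 641 FPKM. The part of these cells in the difference of Sqstm1 was not tested.

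The other receptors and LC3 genes differed between pairs. Map1lc3a was lower in cKO in both P pairs, at 0.619 of the WT level at PD 24 and 0.615 at PD 52, and counting intervals (exact binomial, 95%) of -0.77 to -0.61 and -0.77 to -0.62 on the log2(FPKM + 1) scale excluded 0. In L/Z it was lower at PD 24 by 0.18 and higher at PD 52 by 0.16. Elongating spermatid markers were lower in cKO in the same 3 pairs and higher in L/Z at PD 52, and their part in this difference was not tested. Pink1 was also lower in cKO in both P pairs, at 0.792 and 0.821 of WT, and within 0.12 of WT in both L/Z pairs. Bnip3 was higher in cKO at PD 24, by 1.43-fold in P and 1.81-fold in L/Z, but at PD 52 stood at 0.550 of WT in P and 1.20-fold higher in L/Z. Fundc1 was higher in cKO in 3 of 4 pairs, by 2.32-fold in P at PD 24, 1.87-fold in L/Z at PD 24 and 4.30-fold in L/Z at PD 52, the last a ratio of 42 to 10 reads. Map1lc3b, Bnip3l, Optn and Becn1 went both ways, with fitted differences between -0.03 and 0.00 and SE of 0.149 to 0.177. The counting intervals cover counting error only, with no replicate behind a single pair.

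In no pair did any of the 9 genes reach a 2-fold difference between cKO and WT on the log2(FPKM + 1) scale. The shares of all genes that did so were 1.79% higher and 6.29% lower in P at PD 24, and 3.45% higher and 7.03% lower in L/Z at PD 24. At PD 52 they were 5.21% higher and 5.78% lower in P, and 4.83% higher and 3.12% lower in L/Z. With nothing added to the ratio, Fundc1 passed 2-fold in P at PD 24 and in L/Z at PD 52. No test showed that the cKO difference changed with age. Across all genes 0% were called for a difference between the ages, and 0% for a stage difference that changed with age, with 2582 and 1969 genes at an unadjusted p under 0.05 and 716 and 37 called by limma-voom, 0 of the 9 genes among them in each. Bnip3 came closest among the 9 in the cKO difference, with -0.82 (SE 0.389, limma adjusted p = 0.473).

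**Figure D4:**
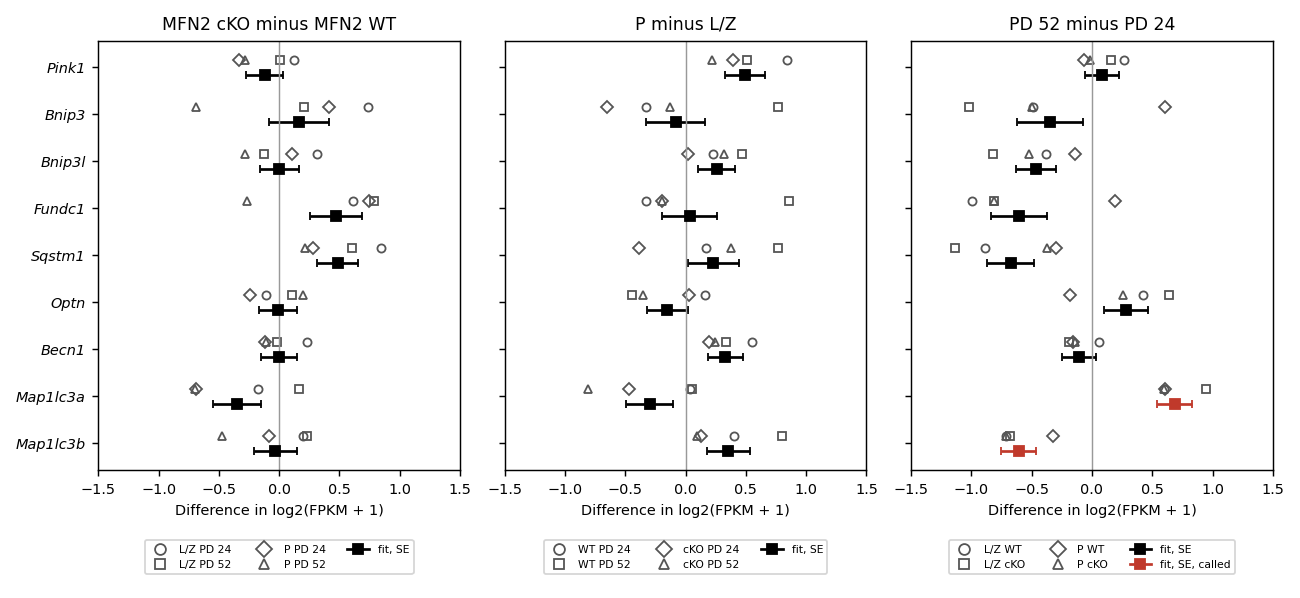
Difference in log2(FPKM + 1) of each gene for cKO minus WT, P minus L/Z and PD 52 minus PD 24, with open symbols for the 4 pairs and squares with bars for the limma estimate and its SE, red where the adjusted p is under 0.05. Only Map1lc3a and Map1lc3b at the right are red, and Sqstm1 lies to the right of 0 in all 4 pairs at the left.

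The 9 genes were set beside 65 other genes of autophagy and mitophagy, of which 63 had more than 1 FPKM in at least 1 library. Atg16l2, at most 0.479 FPKM, and Mitf, at most 0.555 FPKM, did not. Between genotypes 0 of the 63 passed the test, with 0 at an unadjusted p under 0.05, where 1480 of all 21175 genes were. Of the 63, 19 lay higher and 44 lower in cKO. Their median difference was -0.05, against -0.04 over all genes tested. In single pairs, Fundc2, the close relative of Fundc1, was 2.60-fold higher in cKO in L/Z at PD 24, at 5.63 against 2.17 FPKM. Atg101, a subunit of the initiation complex, stood at 0.318 of WT in P at PD 52, at 3.28 against 10.3 FPKM. No other of these genes passed 2-fold in any genotype pair on the log2(FPKM + 1) scale.

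With age, 1 of the 63 was called higher and 4 lower, where all genes gave 11.2% higher and 4.91% lower, so that the lower calls were near the background. Of the 63, 18 lay higher and 45 lower. Their median difference was -0.15, against 0.00 over all genes tested. In the fit of protein-coding genes only, the median over all 14059 genes was -0.11. Nbr1, an adaptor related to Sqstm1, was the one that rose. It stood at 22.4 FPKM in P WT, 15.5 in P cKO, 39.3 in L/Z WT and 20.1 in L/Z cKO at PD 24 and at 39.0, 31.2, 97.2 and 106.7 FPKM at PD 52, a difference of 1.35 (SE 0.279, limma adjusted p = 0.0306). So the related adaptors Nbr1 and Sqstm1 lay on opposite sides of 0. Tbk1, the kinase that phosphorylates optineurin and p62, fell by 0.82 (SE 0.157, limma adjusted p = 0.0260), from 6.67 to 7.71 FPKM at PD 24 to 2.80 to 4.22 FPKM at PD 52, with no overlap. Tfe3, a transcription factor for lysosome and autophagy genes, fell by 0.77 (limma adjusted p = 0.0261). Epg5, a tether for fusion with the lysosome, fell by 0.66 (limma adjusted p = 0.0334), and Ulk1, the kinase that starts autophagy, fell by 0.61 (limma adjusted p = 0.0485). All 8 genes of the lipid kinase complex, Becn1 included, and 9 of the 10 tested genes of LC3 conjugation lay lower at PD 52, with 0 of each called. The median over protein-coding genes, given above, lay below 0 as well. The LC3 relatives Gabarap and Gabarapl1 lay higher at PD 52, by 0.43 (SE 0.139) and 0.62 (SE 0.288), as Map1lc3a did, and Gabarapl2 lower, by -0.30 (SE 0.211). None of these 3 relatives, which were named after their values were seen, passed the test. Of the 63 genes, 0 were called without the L/Z cKO, the L/Z WT or the P cKO pair or in the P libraries alone, and 3 higher and 6 lower without the P WT pair. Without the L/Z cKO or the P cKO pair, 0 of all genes tested were called, with 5541 and 5054 at an unadjusted p under 0.05. Over the 12 alternatives Tfe3 was called in 8, Tbk1 and Epg5 in 7, Nbr1 in 6 and Ulk1 in 3.

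Between the stages, 7 of the 63 were called higher in P and 3 lower. The median of the 63 was 0.02, against -0.04 over all genes and 0.00 over protein-coding genes only. Rhot2, which encodes the mitochondrial transport protein Miro2, was at 3.96 to 6.18 FPKM in P and 1.94 to 3.19 FPKM in L/Z (0.75, SE 0.151, limma adjusted p = 0.0137). Calcoco1, an adaptor, was at 5.73 to 9.57 FPKM in P and 3.29 to 5.12 FPKM in L/Z (0.70, SE 0.143, limma adjusted p = 0.0142). Ambra1, a partner of Beclin 1, was at 13.6 to 23.3 FPKM in P and 8.40 to 12.8 FPKM in L/Z (0.73, SE 0.203, limma adjusted p = 0.0367). The protease Atg4d (0.59) and Epg5 (0.61) were called as well, and so were the transcription factors Tfe3 (0.52) and Tfeb (0.53), the last named after its value was seen. Nbr1 fell by 1.05 from L/Z to P (SE 0.241, limma adjusted p = 0.0206), with 15.5 to 39.0 FPKM in P and 20.1 to 106.7 FPKM in L/Z. Tax1bp1, a further adaptor, fell by 0.64, and Wipi1, which binds the lipid made by the Beclin 1 complex, fell by 0.55. The shares, 7 and 3 of 63, can be read against the 12% and 15.9% of all genes given above. They became 0 and 0 without the WT pair of PD 24 or without the cKO pair of PD 52, 2 and 1 without the cKO pair of PD 24, and 5 and 0 in the PD 24 libraries alone. Coding-gene scaling gave 2 higher and 4 lower. Over the 12 alternatives Rhot2 and Calcoco1 were called in 10, Nbr1 in 8, Epg5 in 7, Ambra1, Atg4d and Tfe3 in 6, Tax1bp1 and Wipi1 in 5 and Tfeb in 4.

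**Figure D5:**
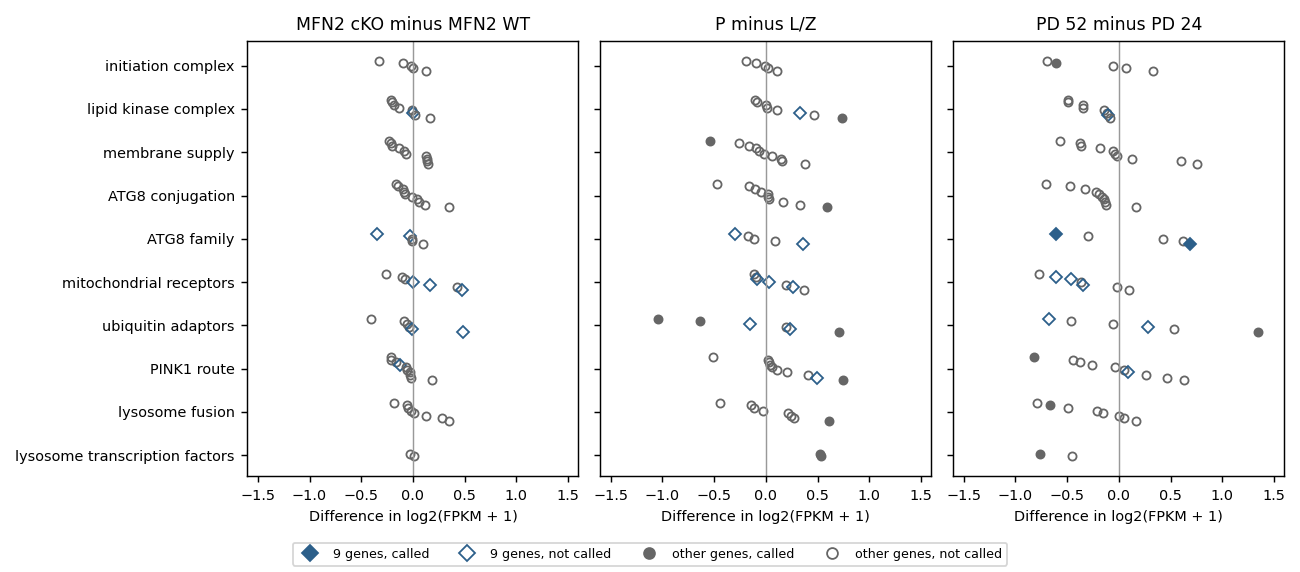
Limma differences in log2(FPKM + 1) of the autophagy and mitophagy genes by role, for cKO minus WT, P minus L/Z and PD 52 minus PD 24, with diamonds for the 9 genes, circles for the others and filled symbols for an adjusted p under 0.05. No symbol is filled at the left, 10 circles are filled in the middle, and 5 circles and 2 diamonds are filled at the right.

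The genes could also be described by how they ran together over the 8 libraries, which share their cell mixture and scaling. As a description over n = 8 libraries of 3 crossed factors, Pearson's r of log2(FPKM + 1) was 0.94 between Bnip3l and Map1lc3b, 0.90 between Fundc1 and Sqstm1, 0.86 between Pink1 and Becn1 and 0.84 between Bnip3 and Fundc1. It was -0.90 between Bnip3l and Optn. Among 7502 protein-coding genes with a mean of at least 5 FPKM, the patterns most like that of Map1lc3a were those of Dnal4 (r = 0.98) and Ankrd60 (r = 0.98). For Map1lc3b they were Dusp6 and Mpzl1, for Pink1 Armc9 and Snrnp35, for Becn1 Efcab7 and Fam118a, and for Optn Ipo13 and Cfap69. For Sqstm1 they were Rnh1 and Tceal9, for Bnip3l Ipo11 and Ppp1cb, for Bnip3 Pdcd6 and Tmem256, and for Fundc1 Gas6 and Txn1. These r lay between 0.96 and 1.00, as the highest of 7502 values each, and say nothing of shared function.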

How the data were processed

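RNA of 8 spermatocyte libraries was analysed from the deposited table of FPKM values, which the authors made from paired-end reads with Novomagic and which lists 54532 genes. The submitters' processing notes name CASAVA 1.4, Bowtie 0.12.2 and the builds mm8 and mm9, but 98.1% of the listed genes had GENCODE M21 (GRCm38) coordinates, so GRCm38 is used here. The authors state DESeq2 as their test. FPKM multiplied by the deposited gene length gave whole reads for 100% of values (within 0.1 read), between 14340665 and 20379950 per library. The authors had already scaled libraries by median-of-ratios factors. Intervals from reads cover counting error only.

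Differences were computed on log2(FPKM + 1), which understates changes of low genes, with limma 3.58.1 in R 4.3.3, for 21175 genes above 1 FPKM in at least 1 library. Each factor was fitted with its 4 matched pairs as a block, and genes at a Benjamini-Hochberg adjusted p under 0.05 over all genes tested were called. Genotype by age and stage by age were fitted as interactions. An exact sign-flip permutation test over 4 pairs cannot go below p = 0.125 and was not used. The p-values measure the spread between pairs, since nothing says how many animals a library holds. The fit was tested on simulated data.

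The 9 genes, the autophagy list and the marker lists were chosen with earlier results of these data known. Values of 1 gene of the autophagy list are not reported here. Named genes were all 9 and Mfn2, of the autophagy list up to 5 called higher and 5 lower per comparison by adjusted p and up to 3 higher and 3 lower per genotype pair past 2-fold, and the 2 best-correlated protein-coding genes per gene. Alternatives were a pseudocount of 0.1, no filter, further scaling, limma-voom on recovered reads, protein-coding genes only, no block, each pair left out and, for single pairs, a ratio with nothing added. Scaling on coding genes and fits of the P or the PD 24 libraries alone were added after seeing the data. Python 3.11.15 and matplotlib 3.10.9 were used for the rest.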

Additional observations from a re-analysis of the deposited data

How the results depend on the processing

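Counts are of the 9 genes called, and differences are on the log2(FPKM + 1) scale. For age, 2 genes were called. There were 0 with a pseudocount of 0.1, 1 with coding-gene scaling, 0 in the P libraries alone and between 0 and 3 with a pair left out (0 without the L/Z cKO, the L/Z WT or the P cKO pair, 3 without the P WT pair). For stage, 0 became 1 (Pink1) by limma-voom and 1 with protein-coding genes only. For genotype and both interactions the count was 0 under every alternative run. In single genotype pairs, 0 genes past 2-fold became 1 (Fundc1) in P at PD 24 and in L/Z at PD 52, with a pseudocount of 0.1 and with nothing added. Further median-of-ratios scaling changed no count, because the authors' values already carried it. Of the other 63 autophagy genes, 1 higher and 4 lower with age became 4 and 10 by limma-voom, 4 and 8 with protein-coding genes only, 3 and 6 without the P WT pair or without the block, and 0 and 2 with a pseudocount of 0.1. Their 7 higher and 3 lower with stage became 7 and 6 by limma-voom and 5 and 1 with a pseudocount of 0.1.

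Directions reversed only in differences that were not called, 18 of 117 single-gene values for genotype, 7 of 108 for stage and 2 of 108 for age. For genotype, the P libraries alone gave -0.14 for Bnip3 and -0.089 for Bnip3l. The PD 24 libraries alone gave 0.058 for Map1lc3b and 0.057 for Becn1. Coding-gene scaling gave 0.0023 for Map1lc3b, 0.028 for Optn and 0.031 for Becn1, and limma-voom 0.0074 for Optn and 0.014 for Becn1. With a pair left out the genotype difference ran from -0.027 to 0.45 for Bnip3, -0.10 to 0.10 for Bnip3l, -0.12 to 0.12 for Map1lc3b, -0.080 to 0.068 for Optn and -0.083 to 0.035 for Becn1. For stage, Fundc1 gave -0.033 by limma-voom, -0.023 with coding-gene scaling and -0.26 in the PD 24 libraries alone, where Sqstm1 gave -0.11 and Optn 0.094. With a pair left out the stage difference ran from -0.37 to 0.11 for Bnip3 and -0.24 to 0.15 for Fundc1. For age, the P libraries alone gave -0.038 for Pink1 and 0.055 for Bnip3. The cause of these changes was not tested.

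With 1 library per group, differences within a pair have no replicate error, and Fundc1, with 10 to 121 reads, is the gene that depth limits most.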
